A study of Mus musculus with 6 samples.

Results

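The genes described here are 10 collagen processing enzymes and chaperones, P4ha1, P4ha2, P4ha3, Plod1, Plod2, Plod3, Serpinh1, Pcolce, Bmp1 and Adamts2, which were taken by symbol from a gene table of 37309 rows. Each symbol had a single row, and all 10 genes passed the filter on low values. RNA was sequenced from smooth muscle cells (named ImSMC in the labels) isolated from descending aortas of Immorto mice, which carry a conditional simian virus large T antigen that keeps its cells dividing in culture. There were 3 libraries of cells given 50 uM DAPT and 3 libraries of cells given DMSO, each after 3 days, and both groups share the Immorto background. DAPT blocks gamma-secretase, the membrane protease that frees the intracellular part of Notch receptors and cuts other membrane proteins as well. The labels name no separate animals, isolates or cultures behind the 3 libraries of a group, so p-values measure the spread between these libraries, which may be technical.

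Collagen chains are modified while they are made in the endoplasmic reticulum. Prolyl 4-hydroxylases, built from a P4ha alpha subunit and the shared beta subunit P4hb, hydroxylate proline so that the triple helix is stable at body temperature, and the Plod lysyl hydroxylases hydroxylate lysine, which later carries sugars and cross-links. The chaperone Serpinh1, also called HSP47, binds the folded triple helix, and after export Adamts2 removes the amino-terminal propeptide while Bmp1, helped by Pcolce, removes the carboxy-terminal one. In the wall of the aorta these steps precede the assembly of fibrils made by smooth muscle cells and fibroblasts. The deposited table annotates 7 of the 10 proteins to the endoplasmic reticulum and the other 3, Pcolce, Bmp1 and Adamts2, to the secretory pathway.

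Recovered totals ranged between 12159930 and 13488512 reads in DAPT libraries and between 10702548 and 14503665 reads in vehicle libraries. Values below are normalised read counts, that is reads divided by 1 size factor per library, unless another scale is named. The Notch target Hes1 was at 211, 199.9 and 223 in DAPT libraries and 320, 331 and 327 in vehicle libraries (log2 difference -0.62), which checks the labels. Of 10 smooth muscle markers listed, 9 were tested with limma, and Acta2, Tagln and Tpm2 fell while 0 rose. Myh11 was low, at 47.1 ± 3.99 under DAPT and 49.2 ± 4.28 in vehicle, and Myocd was at 0.330 ± 0.572 and 0.400 ± 0.693 in the same order (SD, n = 3 each). Cnn1 was also low, at 7.53 ± 5.93 under DAPT and 14.7 ± 5.97 in vehicle (SD, n = 3 each). So were Des, at 31.1 ± 8.05 and 24.7 ± 2.5, and Lmod1, at 36.5 ± 3.35 and 44.7 ± 13.1 in the same order. Better detected markers included the actin-binding Cald1, at 8459 ± 166 under DAPT and 8606 ± 198 in vehicle, and Smtn, at 1069 ± 33.9 and 1078 ± 17 in the same order (SD, n = 3 each).

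Under DAPT 9 of the 10 processing genes fell and 0 rose, by limma across all genes with a Benjamini-Hochberg adjusted p below 0.05. Among the 14906 genes tested, 8.91% were called lower, 9.22% higher and 18.1% in either direction. At an unadjusted limma p below 0.05 P4ha2 alone was higher, and edgeR and DESeq2 on 5 libraries called 0 of the 10 genes higher. Over the 14803 genes in these count tests, edgeR called 944 and DESeq2 445 higher. The share of all genes at the unadjusted cut was not counted, here or for the lists below. The falls were small, between 1.09-fold for Plod1 and Plod3 and 1.56-fold for P4ha3. The median log2 difference, DAPT minus vehicle, was -0.26 over the 10 genes and 0.0009 over all genes tested. In 8 genes every DAPT value lay below every vehicle value, a pattern that 16.4% of all tested genes showed; P4ha2 was separate in the other direction and Plod1 overlapped, and 33.3% of tested genes were separate in either direction. The call of 7 of the 9 genes, all but Plod1 and Plod3, was kept without any 1 of the 6 libraries and in both count tests on 5 libraries, in which edgeR called 6.72% and DESeq2 3.63% of genes lower. In the authors' deposited table the same 7 genes were lower with an adjusted p below 0.05, a call that it gives to 4.74% of the tested genes.

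**Figure D1:**
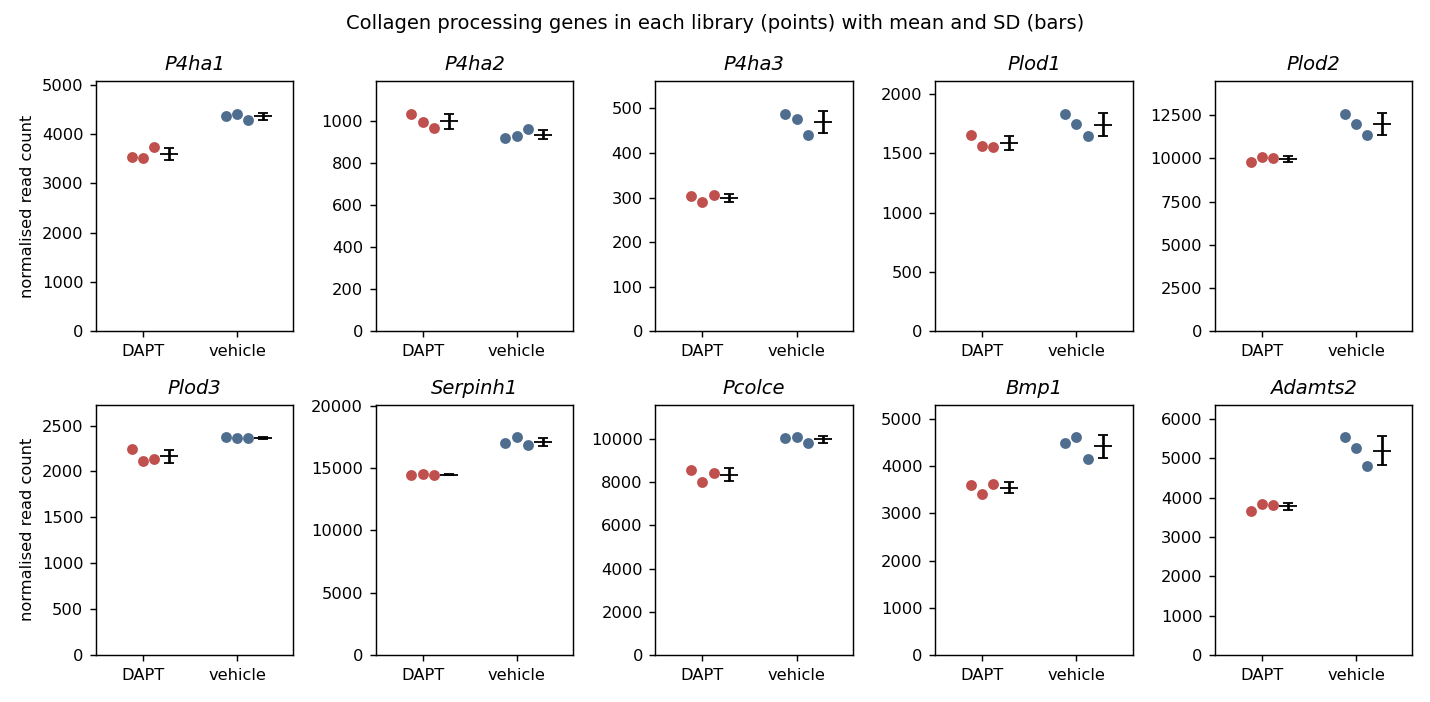
Normalised read counts of the 10 collagen processing genes, with 1 panel per gene and an axis starting at 0. Points are the 3 DAPT libraries (left, red) and the 3 vehicle libraries (right, blue), and bars are the mean and SD; DAPT points lie below vehicle points in 8 panels, overlap them for Plod1 and lie above them for P4ha2.

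P4ha1 and P4ha3, of the 3 alpha subunits of prolyl 4-hydroxylase, fell, and P4ha2 did not pass the test. P4ha1, the alpha subunit found in most cell types, had 3527, 3513 and 3733 normalised counts under DAPT and 4369, 4410 and 4281 in vehicle. The groups did not overlap, and P4ha1 was 1.21-fold lower under DAPT (log2 difference -0.28, SE 0.0343, limma adjusted p = 1.61e-06). P4ha3, the alpha subunit of lowest level here, had 302, 289 and 305 under DAPT and 488, 477 and 441 in vehicle. It was 1.56-fold lower (log2 difference -0.65, 95% interval -0.78 to -0.52, limma adjusted p = 3.77e-08), the largest change of the 10 genes. P4ha2 had 1037, 995 and 967 under DAPT and 919.9, 929.6 and 963 in vehicle. All 3 DAPT values of P4ha2 were above the vehicle values, and the difference did not pass (log2 difference 0.09, 95% interval 0.0011 to 0.18, limma adjusted p = 0.161). Beside them the beta subunit P4hb, which also serves as a disulfide isomerase, was at 14732, 14605 and 14326 under DAPT and 15981, 15267 and 16142 in vehicle (log2 difference -0.12, limma adjusted p = 0.012). The call of P4hb was lost with quantile normalisation (log2 difference -0.02, adjusted p = 0.773), on leaving out DAPT replicate 2 (0.052) or 3 (0.0709), in edgeR (0.0667) and in DESeq2 (0.111).

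The promoters of the 3 alpha subunit genes are printed because these genes encode alternative subunits of 1 enzyme. P4ha1 and P4ha3 were called lower under DAPT, and P4ha2 was called in neither direction. Each run holds 250 bases before and 50 bases after the gene start, from RefSeq on GRCm38.p6, read 5′ to 3′ on the gene's own strand, which is the plus strand for all 3. Capitals mark ACGTG, a form of the core of the hypoxia response element, or its reverse complement CACGT. The form GCGTG was not searched or marked, and the counts below leave it out.
P4ha1, chr10:59323046-59323345: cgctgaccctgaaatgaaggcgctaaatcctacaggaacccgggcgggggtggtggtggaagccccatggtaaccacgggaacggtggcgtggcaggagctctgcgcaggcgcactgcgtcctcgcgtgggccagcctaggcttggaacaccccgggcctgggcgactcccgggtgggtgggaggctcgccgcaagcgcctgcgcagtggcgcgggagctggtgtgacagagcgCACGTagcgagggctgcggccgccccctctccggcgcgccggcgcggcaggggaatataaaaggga
P4ha2, chr11:54100674-54100973: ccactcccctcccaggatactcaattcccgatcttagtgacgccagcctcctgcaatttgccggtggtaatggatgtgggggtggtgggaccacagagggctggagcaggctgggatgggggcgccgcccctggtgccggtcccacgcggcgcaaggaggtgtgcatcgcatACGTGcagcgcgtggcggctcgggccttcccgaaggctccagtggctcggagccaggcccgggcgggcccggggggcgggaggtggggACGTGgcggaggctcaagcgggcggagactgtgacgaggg
P4ha3, chr7:100285270-100285569: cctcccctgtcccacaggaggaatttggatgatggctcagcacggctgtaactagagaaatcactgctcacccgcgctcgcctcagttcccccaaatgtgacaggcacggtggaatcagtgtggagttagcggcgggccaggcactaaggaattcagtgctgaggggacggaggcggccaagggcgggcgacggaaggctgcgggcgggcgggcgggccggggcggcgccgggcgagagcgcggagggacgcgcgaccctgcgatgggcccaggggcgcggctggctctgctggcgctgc
Written on either strand, ACGTG occurs once in the window of P4ha1, at 2 places in that of P4ha2 and at 0 places in that of P4ha3. Promoters of 8 of the 10 genes were matched by symbol, the exceptions being Plod2 and Bmp1. ACGTG was present in 4 of these 8, those of P4ha1, P4ha2, Plod3 and Serpinh1, against 19.6% of 32851 RefSeq promoters of the same length. TGGGAA, the core of the site of the Notch partner RBPJ, was present on either strand in 3, those of Pcolce, Plod1 and Plod3, against 25.6% of all promoters. The GC box GGGCGG was present in 7 of 8, all but Plod3, against 35.7%, the CCAAT box CCAAT in that of Plod3 alone, against 37.4%, and the TATA box TATAAA in those of P4ha1 and Plod1, against 13.6%. GC content was between 53.3% and 77.3% in the 8 windows, above the median of 52.7% over all promoters in each. These matches describe the letters in the windows and say nothing of binding. They were counted at any position, and the TATAAA of P4ha1 lies after the gene start.

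All 3 lysyl hydroxylase genes were called lower, with the largest log2 difference for Plod2. Plod2, which hydroxylates lysine in the telopeptides at the ends of collagen chains, had 9765, 10080 and 10021 normalised counts under DAPT and 12587, 11993 and 11335 in vehicle. The groups were separate, and Plod2 was 1.20-fold lower (log2 difference -0.26, SE 0.0357, limma adjusted p = 5.88e-06). Plod3, which besides lysyl hydroxylase activity can transfer sugars to hydroxylysine, had 2244, 2118 and 2131 under DAPT and 2371, 2360 and 2361 in vehicle. The 3 vehicle values of Plod3 had a CV of 0.263%, below the counting error alone, which is 2.26% at the lowest read count of Plod3. All 3 were above the DAPT values (log2 difference -0.13, limma adjusted p = 0.0141). Plod1, which acts on lysine in the helical part of collagen, had 1659, 1560 and 1556 under DAPT and 1836, 1750 and 1646 in vehicle. The highest DAPT value of Plod1 was above the lowest vehicle value, and the difference was 1.09-fold (log2 difference -0.13, 95% interval -0.22 to -0.04, limma adjusted p = 0.0348). The call of Plod1 was lost without DAPT replicate 2 (adjusted p = 0.146), DAPT replicate 3 (0.142), vehicle replicate 1 (0.16) or vehicle replicate 2 (0.094), and in edgeR (0.132) and DESeq2 (0.408). The call of Plod3 was lost without DAPT replicate 2 (0.0862) or DAPT replicate 3 (0.0712), and in edgeR (0.0666) and DESeq2 (0.258). Exons of Plod3 overlap those of Znhit1 on the other strand, at 364 under DAPT and 395 in vehicle, and whether strand was used in the counting is not given, so that a share of their reads may be mixed. The same may hold for Plod2, which overlaps Gm38391 on the other strand. Pcolce overlaps Fbxo24 on its own strand, at 10.1 under DAPT and 12.1 in vehicle, and Gm36266 on the other. Gm38391 and Gm36266 had no values, so their part cannot be sized.

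The chaperone Serpinh1 had 14433, 14530 and 14437 normalised counts under DAPT and 17052, 17468 and 16840 in vehicle. The 3 DAPT values of Serpinh1 had a CV of 0.38%, the least spread of the 10 genes under DAPT, and lay below all vehicle values. That CV is below the counting error alone, which is 0.851% at the lowest read count of Serpinh1. Serpinh1 was 1.18-fold lower under DAPT (log2 difference -0.24, SE 0.0311, limma adjusted p = 2.73e-06).

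Adamts2, Bmp1 and Pcolce, which act on procollagen after it leaves the endoplasmic reticulum, fell. Adamts2, the amino-terminal propeptidase of fibrillar procollagens, had 3668, 3840 and 3819 under DAPT and 5531, 5264 and 4792 in vehicle. The lowest vehicle value was well above the highest DAPT value, and Adamts2 was 1.37-fold lower (log2 difference -0.46, 95% interval -0.54 to -0.37, limma adjusted p = 9.79e-09). Vehicle values of Adamts2 had a CV of 7.2%, the widest of the 10 genes, against 2.49% under DAPT. Bmp1, the carboxy-terminal propeptidase, had 3601, 3423 and 3623 under DAPT and 4502, 4613 and 4154 in vehicle, lower by 1.25-fold without overlap (log2 difference -0.32, SE 0.0385, limma adjusted p = 1.3e-06). Pcolce, the secreted enhancer of Bmp1, had 8576, 8009 and 8438 under DAPT and 10058, 10079 and 9807 in vehicle, 1.20-fold lower without overlap (log2 difference -0.26, SE 0.0332, limma adjusted p = 2.67e-06). The ratio of Bmp1 to Pcolce per length, on the log2 scale, was -1.12 ± 0.017 under DAPT and -1.06 ± 0.0576 in vehicle, with overlapping groups (SD, n = 3 each, exact two-sided permutation p = 0.3).

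Vehicle replicate 3 gave the lowest vehicle value for 8 of the 10 genes, and the lowest DAPT value was in replicate 2 for 5 genes. The CV within a group was between 0.38% and 3.67% under DAPT and between 0.263% and 7.2% in vehicle. Between 275 and 19018 reads per library stood behind each gene, and counting error alone at the lowest, for P4ha3, is 6.03%.

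**Figure D2:**
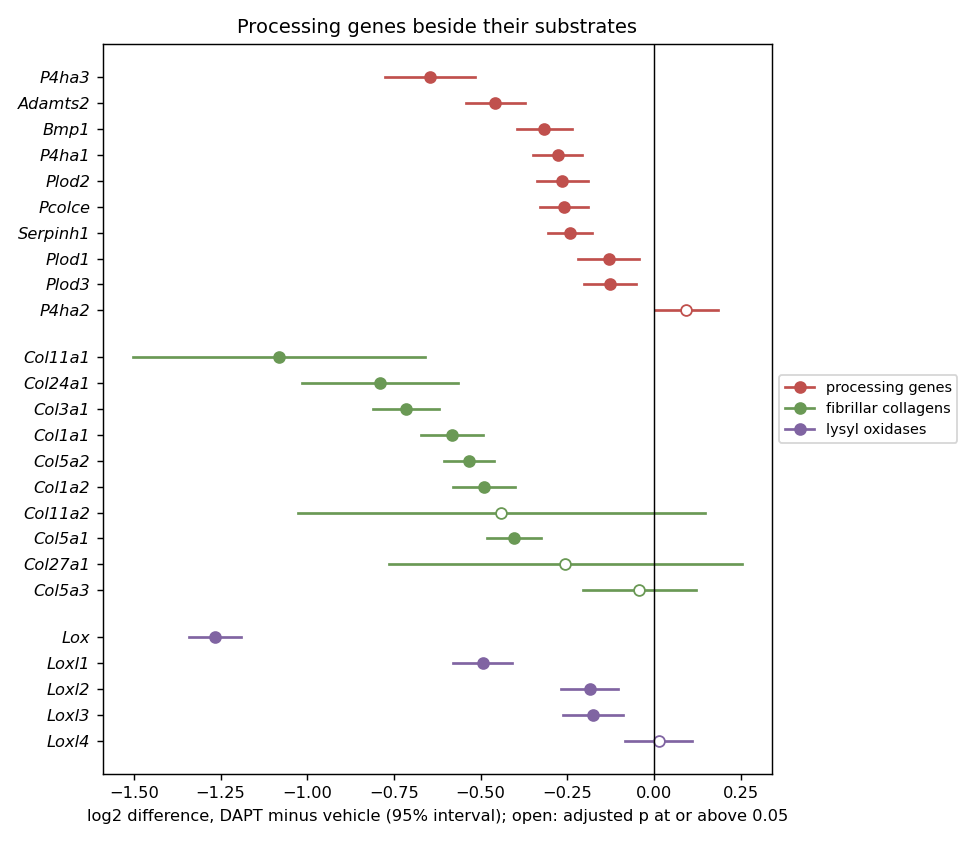
Log2 difference, DAPT minus vehicle, with its 95% interval for the 10 processing genes, 10 fibrillar collagen chains and 5 lysyl oxidases that were tested with limma; filled points passed an adjusted p of 0.05. The processing genes lie between -0.65 for P4ha3 and 0.09 for P4ha2, to the right of Lox at -1.26.

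Levels of different genes were compared as normalised counts per kilobase of the deposited gene length, which can include exons that these cells do not use. Serpinh1 was highest, at 5941 ± 22.6 per kb under DAPT and 7031 ± 131 in vehicle (SD, n = 3 each), and P4ha3 lowest, at 69.1 ± 1.94 and 108 ± 5.69 in the same order. Between them Plod2, Pcolce, Bmp1, P4ha1, Adamts2, Plod3, Plod1 and P4ha2 followed each other downwards. Plod2 and Pcolce did not differ beyond their spread in vehicle, where Plod2 was between 1945 and 2160 per kb and Pcolce between 1901 and 1954, but under DAPT Plod2 was between 1675 and 1730 and Pcolce between 1553 and 1663. P4ha2 and P4ha3 overlapped in vehicle, at 108 to 113 and 102 to 113 per kb, and were apart under DAPT, at 114 to 122 and 66.8 to 70.5. The other neighbours in the order did not overlap in either group.

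The make-up of the prolyl 4-hydroxylase family by per-length level differed between groups in its minor members. P4ha1 held 75.0% ± 0.917 of the summed P4ha level under DAPT and 75.6% ± 0.149 in vehicle, with overlapping groups (SD, n = 3 each, exact two-sided permutation p = 0.4). P4ha2 held 16.5%, 16.0% and 14.9% under DAPT and 12.01%, 12.07% and 12.8% in vehicle. P4ha3 held 9.43%, 9.15% and 9.21% under DAPT and 12.5%, 12.2% and 11.6% in vehicle. Vehicle cells thus had the 2 minor subunits at near equal shares, and under DAPT P4ha2 was above P4ha3 in every library. Both shares were without overlap between groups, and each reached the smallest p that 3 against 3 libraries allow in an exact two-sided permutation test, 0.1, and 0.117 after Benjamini-Hochberg adjustment over the 21 shares and ratios computed. Within the Plod family Plod2 held 76.5% ± 0.91 under DAPT and 78.1% ± 0.521 in vehicle, Plod3 14.6% ± 0.543 and 13.6% ± 0.595, and Plod1 8.87% ± 0.368 and 8.25% ± 0.0748, each pair without overlap (SD, n = 3 each, exact two-sided permutation p = 0.1, adjusted p = 0.117). The level of P4hb per length over that of the 3 alpha subunits together was 2.44 ± 0.0526 on the log2 scale under DAPT and 2.29 ± 0.0605 in vehicle, higher in every DAPT library (SD, n = 3 each, exact two-sided permutation p = 0.1). This ratio rose because its divisor fell, while P4hb itself was called lower (log2 difference -0.12). The summed P4ha level was 746 ± 17.8 per kb under DAPT and 896 ± 12.9 per kb in vehicle (SD, n = 3 each). A gene without change would also be higher over this divisor.

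**Figure D3:**
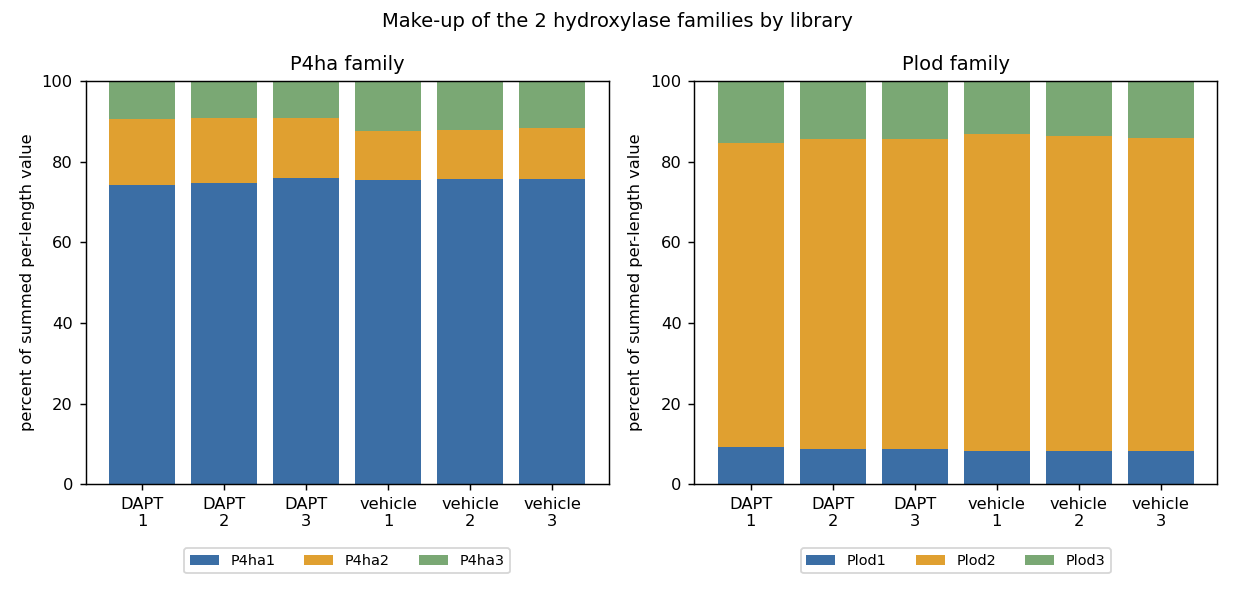
Share of each gene in the summed per-length level of its hydroxylase family, in percent, with 1 bar per library and DAPT libraries left of vehicle libraries. P4ha2 is between 14.9% and 16.5% under DAPT and between 12.01% and 12.8% in vehicle, and P4ha1 and Plod2 make up most of their families in all 6 bars.

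The chains that these enzymes act on were set beside them. Of 10 fibrillar collagen chains tested, 7 fell and 3 did not pass, with a median log2 difference of -0.51. Col1a1, the main chain of type I collagen, was at 16475 ± 577 under DAPT and 24726 ± 1994 in vehicle, Col1a2, its partner chain, at 12691 ± 244 and 17875 ± 1604, and Col3a1, the chain of type III collagen, at 14723 ± 194 and 24247 ± 2369 in the same order (SD, n = 3 each). The largest fall was that of Col11a1, a minor chain, with a log2 difference of -1.08. The summed per-length level of Col1a1, Col1a2, Col3a1, Col5a1 and Col5a2 was 5893, 5749 and 5653 per kb under DAPT and 9405, 8671 and 7979 per kb in vehicle, a log2 difference of -0.59.

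Relative to that collagen sum, 9 of the 10 processing genes were higher in every DAPT library than in any vehicle library. Since the divisor fell, 87.7% of all tested genes showed the same (0.664% were lower in every DAPT library), and the median difference of this log2 ratio over all genes was 0.59, so the count is near the background. The processing genes lay below that median with the exception of P4ha2. The log2 ratio of P4ha2 was -5.62 ± 0.0205 under DAPT and -6.30 ± 0.152 in vehicle, a difference of 0.68. The difference was 0.46 for Plod1 and Plod3, 0.35 for Serpinh1, 0.33 for Pcolce, 0.32 for Plod2, 0.31 for P4ha1, 0.27 for Bmp1 and 0.13 for Adamts2. For P4ha3 the log2 ratio was -6.38 ± 0.052 under DAPT and -6.32 ± 0.0503 in vehicle, with overlapping groups (SD, n = 3 each, exact two-sided permutation p = 0.2). The other 9 genes each had an exact permutation p of 0.1, the smallest possible, and 0.117 after adjustment.

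**Figure D4:**
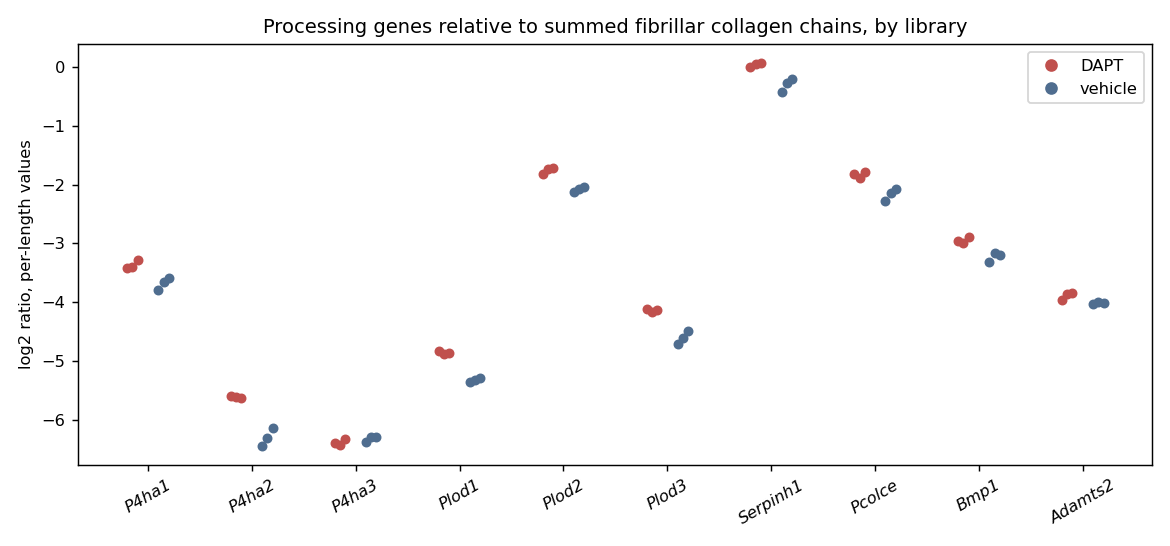
Log2 ratio of each processing gene to the summed fibrillar collagen chains, both per length, with 1 point per library (DAPT left in red, vehicle right in blue). The points of Serpinh1 are near 0, those of P4ha3 near -6.3 in both groups, and the DAPT points lie above the vehicle points for all genes but P4ha3.

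Other factors that modify or fold procollagen moved the same way in part. Of 18 listed, all 18 were tested, 12 fell, 0 rose and 6 did not pass, with a median log2 difference of -0.13. Those that fell included Leprel1, a prolyl 3-hydroxylase, at 268 ± 19.6 under DAPT and 383 ± 18.5 in vehicle (log2 difference -0.51, limma adjusted p = 7.41e-06), the largest fall of the list. Sparc, a collagen-binding secreted protein and the most abundant of the list, was at 19017 ± 200.1 and 24597 ± 499.9 in the same order (SD, n = 3 each, log2 difference -0.37, limma adjusted p = 4.42e-09). Hspa5, the general chaperone BiP, was next in abundance, at 16025 ± 462 and 17028 ± 35.2, and did not pass (SD, n = 3 each, log2 difference -0.09, limma adjusted p = 0.0588). Among the 18, chosen after its value was seen, Fkbp10, a prolyl isomerase that works with collagen and Plod2, was at 2394 ± 35.4 under DAPT and 3155 ± 59.2 in vehicle (SD, n = 3 each, log2 difference -0.40, limma adjusted p = 5.12e-09). DESeq2 on 5 libraries called 6 of the 18 lower. At an unadjusted limma p below 0.05 1 of the 18, Tmem38b, an ion channel of the endoplasmic reticulum, was higher, and 0 were by edgeR or DESeq2. Of the collagen galactosyltransferases, Glt25d1, which adds galactose to hydroxylysine, was at 2658 ± 23.8 under DAPT and 2813 ± 50.6 in vehicle and did not pass (SD, n = 3 each, limma adjusted p = 0.103), and Glt25d2 lay below the filter.

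Genes for the export of procollagen in large vesicles were also listed. Of 12 tested, 3 fell, 0 rose and 9 did not pass, with a median log2 difference of -0.06. The 3 were coat proteins, Sec13 with a log2 difference of -0.25 (limma adjusted p = 1.93e-04), Sec23a with -0.19 and Sec31a, the most abundant of the list, with -0.15. Creb3l2, a transcription factor of secretory genes, was next in abundance, at 1706 ± 63.4 under DAPT and 1760 ± 94.6 in vehicle (SD, n = 3 each, limma adjusted p = 0.533). Ctage5, an export receptor component chosen after its value was seen, was at 549 ± 14.3 and 502 ± 5.38, above vehicle in every DAPT library without passing (SD, n = 3 each, log2 difference 0.13, limma adjusted p = 0.094), and it was the 1 export gene higher at an unadjusted p below 0.05. EdgeR and DESeq2 called 0 export genes higher, and Sec23a lost its call in DESeq2 (adjusted p = 0.16).

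Relatives of the propeptidases went different ways. Of 8 listed, 5 were tested, 1 rose, 1 fell and 3 did not pass, with a median log2 difference of -0.08. Pcolce2, a paralogue of Pcolce, had 326 ± 33.7 normalised counts under DAPT and 225 ± 29.2 in vehicle, 1.45-fold higher and opposite in direction to Pcolce (SD, n = 3 each, log2 difference 0.54, limma adjusted p = 1.13e-04). Adamts3, which like Adamts2 removes amino-terminal propeptides, was at 36.3 ± 6.6 and 62.1 ± 8.16 in the same order, 1.70-fold lower (SD, n = 3 each, limma adjusted p = 0.00262, and 0.0836 in DESeq2). Furin, the convertase that activates several of these proteinases, was at 1466 ± 51.3 and 1547 ± 61.0 and did not pass (SD, n = 3 each, limma adjusted p = 0.217). Of 5 lysyl oxidases, which cross-link hydroxylated and processed collagen, 4 fell and 1 did not pass, with a median log2 difference of -0.19. Lox had a log2 difference of -1.26 and was at 7224 ± 199 under DAPT and 17372 ± 903 in vehicle, and Loxl2 had -0.19, at 5046 ± 193 and 5745 ± 347 (SD, n = 3 each). DESeq2 on 5 libraries called 2 of the 5 lower. Of the collagens and lysyl oxidases 0 were higher at an unadjusted p below 0.05 or by edgeR or DESeq2.

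**Figure D5:**
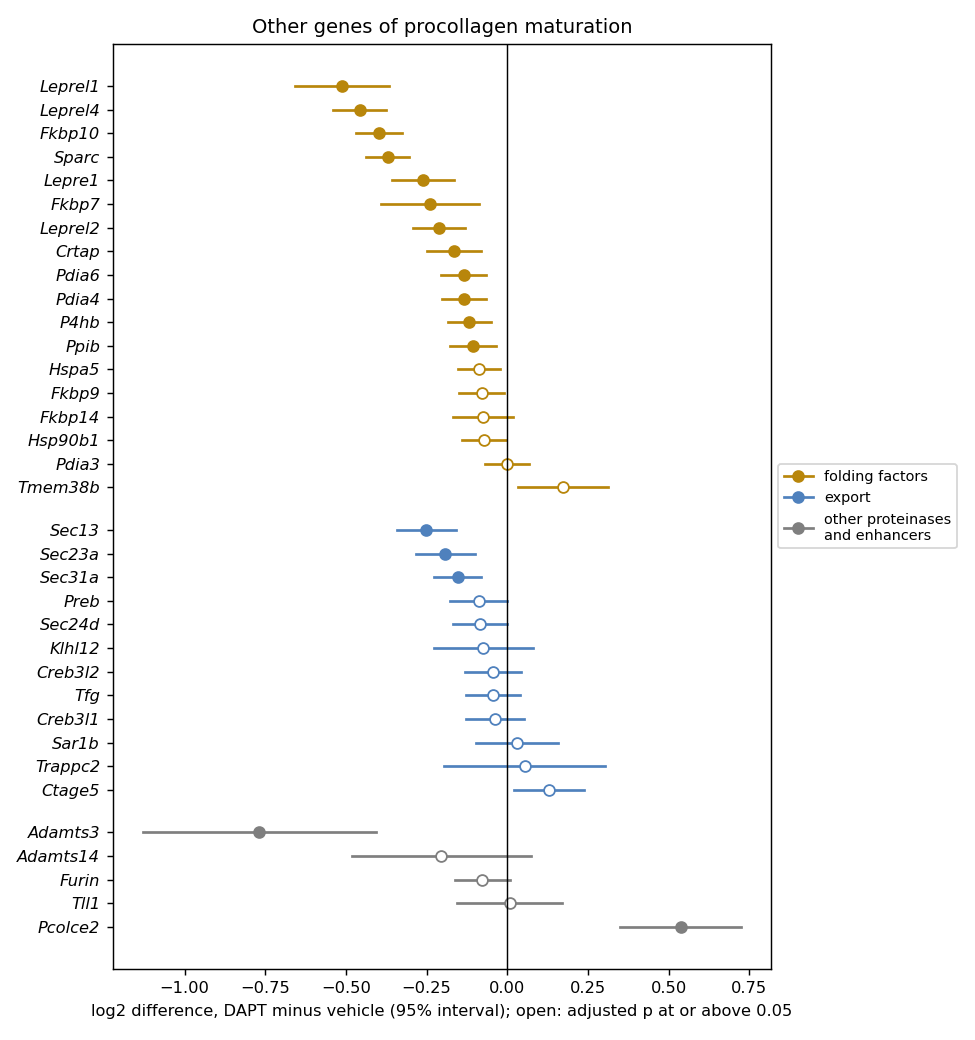
Log2 difference, DAPT minus vehicle, with its 95% interval for 18 folding factors, 12 export genes and 5 other proteinases and enhancers; filled points passed a limma adjusted p of 0.05. Of these points 12, 3 and 1 are filled left of 0, and Pcolce2, at 0.54, is the 1 filled point to the right.

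P4ha1, P4ha2, Plod1 and Plod2 are known to respond to hypoxia, so other hypoxia response genes were set beside them. Of 14 tested, 2 rose, 2 fell and 10 did not pass, with a median log2 difference of -0.09. Egln3, a prolyl hydroxylase of the hypoxia factor, was at 209.8 ± 6.97 under DAPT and 380.1 ± 39.0 in vehicle (SD, n = 3 each, log2 difference -0.85), and Ndrg1 at 790.3 ± 9.12 and 687 ± 30.7 in the same order (log2 difference 0.20, limma adjusted p = 0.00388, and 0.129 in DESeq2). Adm, the vasodilator peptide adrenomedullin, was the other gene that fell, at 561 ± 6.6 under DAPT and 865 ± 8.92 in vehicle (SD, n = 3 each, log2 difference -0.62, limma adjusted p = 4.45e-10). The number called lower was 4 without DAPT replicate 1 and 2 or 3 in the other alternatives. The glycolytic genes Aldoa and Ldha, the most abundant of the list, did not pass (limma adjusted p = 0.298 and 0.0542). The second gene that rose, Kdm3a, lost its call in 6 alternatives, among them without DAPT replicate 1 (adjusted p = 0.0724), DAPT replicate 3 (0.184) or vehicle replicate 2 (0.117). Of 6 tested hydroxylases that share the need of the P4ha and Plod enzymes for iron and 2-oxoglutarate but act on other proteins, Egln3 fell, 0 rose and 5 did not pass, with a median log2 difference of -0.09.

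Markers of other cell types are given beside these falls because fibroblasts and mesothelial cells also make collagen. In bulk RNA fewer cells of a type and less RNA per cell cannot be told apart. Of 13 fibroblast markers, all tested, 9 fell, 2 rose and 2 did not pass, with a median log2 difference of -0.32, and their summed level was between 49939 and 52007 in DAPT libraries and between 48909 and 52557 in vehicle libraries. Gsn, Ly6a and Dcn were the largest parts of that sum. Gsn and Ly6a rose, with means of 17473 and 10868 under DAPT and 15907 and 9435 in vehicle. Dcn fell, with means of 9985 and 10989 in the same order. In DESeq2 on 5 libraries Pdgfra (adjusted p = 0.428) and Dcn (0.0849), which fell, and Gsn (0.0557), which rose, lost their calls. Pdgfra also lost it in 5 other alternatives, the highest adjusted p being 0.157, without vehicle replicate 1, and Dcn in 2 others, with quantile normalisation (0.0647) and without DAPT replicate 1 (0.124). Of 10 mesothelial markers 8 were tested, 7 fell and 1 did not pass, with a median log2 difference of -0.61, and their sum was between 3469 and 3543 in DAPT libraries and between 5614 and 5752 in vehicle libraries. Bnc1 and Upk3b were the largest parts of the mesothelial sum, and both fell. Bnc1 was at 1478 ± 35.8 under DAPT and 2124 ± 68.2 in vehicle, and Upk3b at 671 ± 40.5 and 1350 ± 51.4 (SD, n = 3 each). The mesothelial markers Wt1 (adjusted p = 0.0819) and Cdh1 (0.194) lost their calls in DESeq2. The mesothelial markers Krt8 and Krt18 lay below the filter, at 0.660 ± 1.14 and 3.03 ± 2.14 under DAPT and 0 and 3.85 ± 2.12 in vehicle (SD, n = 3 each). Of 8 endothelial markers 4 were tested and 0 passed with limma, also at an unadjusted p below 0.05, with sums between 609 and 632 in DAPT libraries and between 594 and 655 in vehicle libraries, and the defining markers Pecam1 and Cdh5 averaged under 3 normalised counts in both groups. Most of the endothelial sum was Kdr, at 529 ± 14.2 under DAPT and 541 ± 18.1 in vehicle (SD, n = 3 each). Of 8 leukocyte markers 2 were tested and Cd68 rose, with sums between 405 and 424 in DAPT libraries and between 334 and 387 in vehicle libraries, and Emr1 and Cd3e were at 0 in all 6 libraries. The call of Cd68 was lost in DESeq2 (adjusted p = 0.262), without DAPT replicate 2 (0.0581) and without vehicle replicate 1 (0.0678). The 10 smooth muscle markers summed to between 11495 and 11944 in DAPT libraries and between 12615 and 13197 in vehicle libraries. Most of that sum was Cald1, at a mean of 8459 under DAPT and 8606 in vehicle. Of the 9 tested, 3 fell, 0 rose and 6 did not pass. Acta2 fell, at 252 ± 26.3 under DAPT and 520 ± 50.8 in vehicle, as did Tagln, at 495 ± 36.1 and 925 ± 60.6 (SD, n = 3 each). The part of fibroblast, mesothelial and smooth muscle markers in the falls of the processing genes was not tested.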

How the data were processed

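RNA sequencing of 3 DAPT and 3 vehicle libraries was analysed from 1 gene table. The deposited signal of each library is a normalised count: whole reads over a library-wide size factor, per the file headers and the values. TopHat2 2.0.4, HTSeq 0.5.4p3, DESeq 1.16.0 and build mm9 are named without roles in the submitters' processing notes; annotation, filters and strand use are not given in the sources used here. Letters C and I of the columns were read as control and inhibitor. The deposited RPKM, 1 value per group, equals the group mean per kilobase over a constant (11.22, tested on genes with a mean above 100). The deposited log2 ratio, p-value and adjusted p-value are the authors' and the test behind them is not given. Reads came out whole for 100% of values (tolerance 0.01 reads), also in DAPT replicate 3. The size factor of that library, 1.01, fell within the margin near 1 at which the rule used here leaves a library out of count tests. EdgeR 4.0.16 and DESeq2 1.42.0 therefore used the other 5 libraries. The read totals and ranges given include DAPT replicate 3.

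Differences were tested by limma 3.58.1 (R 4.3.3, with a trend) on log2(normalised count + 1), for genes of at least 10 in at least 3 libraries, DAPT minus vehicle, two-sided, Benjamini-Hochberg adjusted over all genes, threshold 0.05. Fold changes are on that log2 scale. Shares and ratios used values per deposited length and exact permutation over libraries (SciPy 1.17.1). The procedure was tested on simulated data. Alternatives were the pseudocount, filter, scaling, replicate block, robust empirical Bayes, both count tests and leaving out each library. The 10 genes and all lists were chosen with earlier results of these data known. Named besides them were, of each list, the called genes that rose and fell most and the 2 most abundant. P4hb, Hes1, Col1a1, Col1a2 and Col3a1 were named as well. Among further genes, Fkbp10, Ctage5, Adm, Kdm3a, Sec23a and Tmem38b were picked with values known, and marker genes are named as examples. Build mm9 differs from the GRCm38 references, which gave promoters and overlapping genes only.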

Additional observations from a re-analysis of the deposited data

How the results depend on the processing

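The 9 falls kept their direction under every alternative run, and P4ha2 kept its positive sign and stayed short of the threshold. Plod1 lost its call in DESeq2 (log2 difference -0.1150) and edgeR (-0.1166) on 5 libraries, and ranged between -0.1717 and -0.0930 without 1 library. Plod3 lost it in DESeq2 (-0.1163) and edgeR (-0.1185), and ranged between -0.1542 and -0.1125 without 1 library. The number of processing genes called lower was 7 in both count tests and between 7 and 9 without 1 library. Over all genes, 537 were called lower and 445 higher in DESeq2, against 995 and 944 in edgeR and 1328 and 1375 in limma; over the 69 tested genes of the other lists DESeq2 called 19 lower and 1 higher, against 29 and 3 in limma. The count tests had 1 library fewer, DAPT replicate 3. Limma without that library called 991 genes lower and 965 higher, and 27 and 2 of the genes of the other lists. The cause of the differences between tests was not tested. With the replicate number as a block 9 processing genes were lower, 1336 genes lower and 1396 higher, and no call of a processing gene changed. Same-numbered libraries share only a number: their deviations correlated at 0.027, -0.018 and 0.010, and not every library correlated best with its own number. Shares and ratios kept their sign without any 1 library. They also did so where computed with deposited RPKM. That is no separate check, because this RPKM is the group mean per kilobase over a constant. Other scalings moved the median of all genes to -0.0004 and 0.0073. Replicate number, not depth, limits the smallest exact p.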
